A study of Zea mays with 28 samples.

Results

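Chromatin of developing maize embryos was immunoprecipitated with antibodies against ZmDDM1A and ZmAGO4, and the places where the 2 proteins were called were compared peak by peak. The comparison rests on 4 of the 28 libraries of the series, chosen by their labels: ZmDDM1A ChIP in wild type (WT), replicates 1 and 2, and ZmAGO4 ChIP in WT, replicates 1 and 2. The ZmDDM1A lists held 45957 and 45011 peaks and the ZmAGO4 lists 99625 and 98086 peaks, and all of them were used. All embryos were of the inbred line W22, field grown, without special treatment and 18 days after pollination (18 DAP), and each antibody was made by the laboratory itself. Further groups served as comparisons: ZmDDM1A ChIP in zmddm1a embryos (817 and 883 peaks), which shows what the ZmDDM1A antibody recovers from embryos labelled as mutant for its antigen, and ZmDDM1B ChIP in WT embryos (56570 and 53298 peaks). No mutant of ZmAGO4 was analysed here, so the ZmAGO4 lists have no such control. Replicates are numbered in the labels, which do not name separate plants or batches, so p-values measure the spread between these libraries and that spread may be technical.

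DDM1 proteins are SNF2-type chromatin remodellers, ATP-driven enzymes that move nucleosomes. In Arabidopsis, DDM1 is known for giving DNA methyltransferases access to heterochromatic transposons. AGO4 is an Argonaute of RNA-directed DNA methylation, the pathway in which small RNAs guide a methyltransferase to matching chromatin, and in maize this pathway is known to act largely beside genes, at the borders between gene-rich and transposon-rich chromatin. The title of the series sets maize DDM1 and this pathway together on active chromatin. The question addressed here is how the ZmDDM1A signal is laid out relative to ZmAGO4: along the chromosomes, in peak width and spacing, and inside or beside the stretches that ZmAGO4 occupies.

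Coordinates are of the B73 RefGen_v4 assembly, counted from 1. The genes and sequences at these positions were not analysed here. Peaks of both replicates of an antibody that overlapped were joined, and each joined stretch to which both replicates contributed is called a region, while a summit is the position of the highest signal in a peak, as deposited. There were 37060 ZmDDM1A regions and 89782 ZmAGO4 regions. ZmDDM1A regions covered 1.06% of the 10 chromosomes and ZmAGO4 regions 5.37%, and these shares are the background for what follows.

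ZmDDM1A peaks were narrow and ZmAGO4 peaks broad. The median width of a peak was 390 and 412 bp in the ZmDDM1A libraries, against 833 and 829 bp in the ZmAGO4 libraries, a difference of -1.05 on the log2 scale (-1.78 with lists of equal length). The libraries of 1 antibody differed far less than the antibodies did, and the groups did not overlap. Peaks under 600 bp made up 79.6% and 77.0% of the ZmDDM1A lists, against 36.3% and 36.2% of the ZmAGO4 lists. Peaks of 1000 bp and over were 4.99% and 5.73% of the ZmDDM1A lists, against 41.6% and 41.1% of the ZmAGO4 lists. The same order held on each of the 10 chromosomes, where medians ran between 379 and 420 bp for ZmDDM1A and between 795 and 868 bp for ZmAGO4. For width, as for every comparison of 2 against 2 libraries below that gives 0.33, the two-sided exact permutation p was 0.33, the smallest this design allows, so none can pass 0.05.

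Typical folds were lower for ZmDDM1A than for ZmAGO4. The fold enrichment of a peak is the authors' own ratio of signal to background at the summit. Its median was 3.98 and 3.93 for ZmDDM1A, against 6.20 and 6.43 for ZmAGO4, and its maximum was 54.2 and 52.3 for ZmDDM1A, against 39.8 and 47.3 for ZmAGO4. In zmddm1a the same antibody reached 46.2 and 55.6, so folds this high were also listed in embryos labelled as mutant. Depth differed between the antibodies. The lowest recurring background, a relative measure of depth, was 17.9 and 17.9 fragments per kb for ZmDDM1A, against 31.4 and 28.5 for ZmAGO4. Here the smallest peak width of each list stands in for the fragment length, which the lists do not state. The median pileup recovered at summits, which holds enrichment as well as depth, was 43 and 43 fragments for ZmDDM1A, against 100 and 94 for ZmAGO4, and the median background was 10.3 and 10.4 fragments, against 16.6 and 14.7. Both width and list length can move with depth, so antibody and depth cannot be told apart in them.

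Spacing between neighbouring summits had a different shape in the 2 kinds of list. The median gap was 10865 and 11465 bp for ZmDDM1A, against 5691 and 5815 bp for ZmAGO4, a log2 difference of 0.96 (exact permutation p = 0.33). Gaps under 2 kb were as common for ZmDDM1A (23.3% and 22.6%) as for ZmAGO4 (24.1% and 23.9%) within 2 percentage points, although the ZmDDM1A lists were less than 50% as long. Gaps under 1 kb made up 9.92% and 9.39% for ZmDDM1A, against 7.01% and 7.001% for ZmAGO4. At the other end, gaps over 50 kb made up 27.9% and 28.4% for ZmDDM1A, against 12.7% and 12.9% for ZmAGO4. ZmDDM1A thus had larger shares of gaps under 1 kb and over 50 kb. Each peak has 1 summit, so the broader ZmAGO4 peaks leave less room for short gaps. The part of peak width in these shares was not tested. With a fold of at least 4 in every list the log2 difference of the median gap was 1.94.

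The direction of the median gap depended on list length. When each list was reduced to its 45011 peaks of smallest p-value, ZmDDM1A gaps had medians of 11288 and 11465 bp, against 19833 and 19648 bp for ZmAGO4, a log2 difference of -0.80. Gaps under 2 kb were then 22.9% and 22.6% for ZmDDM1A, against 6.36% and 6.55% for ZmAGO4. That selection keeps broad ZmAGO4 peaks, with median widths of 1401 and 1374 bp, which leave less room for short gaps.

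**Figure D1:**
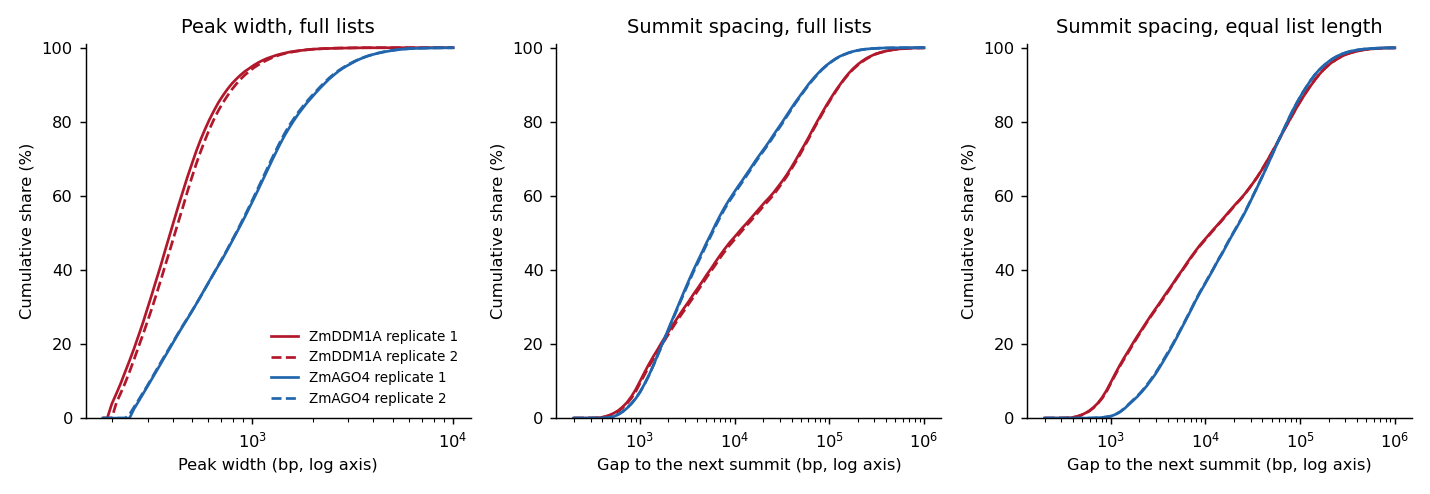
Cumulative shares of peaks by width (left) and of gaps between neighbouring summits in the full lists (middle) and in lists of 45011 peaks each (right), in bp on log axes, with solid lines for replicate 1 and dashed lines for replicate 2. ZmDDM1A (red) is narrower than ZmAGO4 (blue) throughout, and its gap curve crosses that of ZmAGO4 near 2 kb in the full lists.

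Both proteins were called most densely towards the chromosome ends, and ZmDDM1A more so. The outer 40% of the chromosomes, meaning the first and last 20% of each, held 55.3% and 55.5% of ZmDDM1A peaks, against 51.7% and 51.6% of ZmAGO4 peaks. The difference of 3.68 percentage points was many times the spread between replicates (exact permutation p = 0.33), and it was 6.08 with a fold of at least 4 in every list. On 9 of 10 chromosomes both ZmDDM1A libraries exceeded both ZmAGO4 libraries in this share. The gap was widest on chromosome 2, with 61.3% for ZmDDM1A and 54.3% for ZmAGO4, and narrowest of these 9 on chromosome 3, with 53.4% and 52.1%.

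Chromosome 4 went the other way. Its outer 40% held 44.3% of the ZmDDM1A peaks and 48.3% of the ZmAGO4 peaks on that chromosome, a difference of -4.02 percentage points. Chromosome 4 also had the fewest ZmDDM1A peaks per Mb, 18.9 and 18.4, against a median over chromosomes of 21.7 and 21.3. Its median ZmDDM1A gaps were the widest, 15080 and 16861 bp. Chromosome 10 was close in both, with 18.96 and 18.57 ZmDDM1A peaks per Mb and median gaps of 14192 and 14809 bp. Yet its outer 40% held 57.0% of its ZmDDM1A peaks, against 50.4% of its ZmAGO4 peaks. The most ZmDDM1A peaks per Mb were on chromosome 5, 24.5 and 24.0. Set against ZmAGO4, there were 41.8 ZmDDM1A peaks per 100 ZmAGO4 peaks on chromosome 4 and 50.8 on chromosome 5, with a median of 45.8 over the 10 chromosomes.

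Along the chromosomes in steps of 5% of their length, both lists had their lowest step between 30 and 45%. The steps there held 2.44 to 2.63% of the ZmDDM1A peaks and 2.76 to 2.85% of the ZmAGO4 peaks. The last 5% held 9.02% and 9.14% of the ZmDDM1A peaks, against 7.89% and 7.83% of the ZmAGO4 peaks. Per 100 ZmAGO4 peaks there were 49.7 ZmDDM1A peaks in the first 5%, 38.9 between 20 and 25%, 39.4 between 45 and 50%, and 53.1 in the last 5%. In windows of 1 Mb the number of ZmDDM1A summits followed that of ZmAGO4 summits, with a Spearman correlation of 0.861 to 0.869 over 2101 windows for the 4 pairs of libraries. Between replicates it was 0.972 for ZmDDM1A and 0.991 for ZmAGO4. Windows share their chromosome and its mappability, so these values are descriptions.

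**Figure D2:**
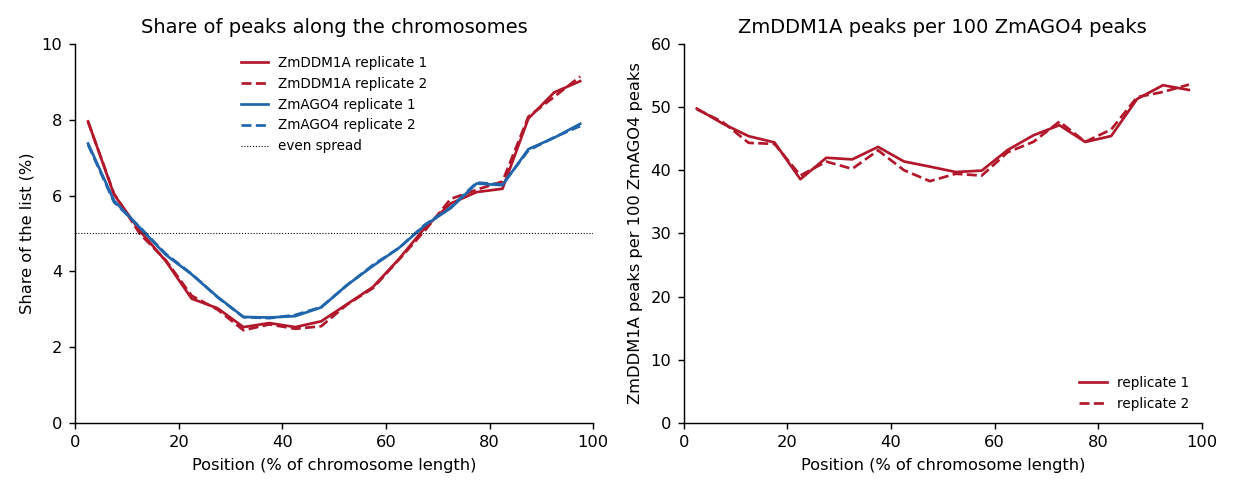
Share of each list in 20 steps along the chromosomes (left) and ZmDDM1A peaks per 100 ZmAGO4 peaks in the same steps (right), summed over 10 chromosomes, with solid lines for replicate 1 and dashed lines for replicate 2. Both lists dip in the interior, and the ratio lies near 40 there and at 49.7 and 53.1 in the first and last 5%.

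Most ZmDDM1A summits fell inside ZmAGO4 regions. In the ZmDDM1A libraries 77.9% and 78.5% of summits lay inside (78.2% ± 0.402, SD, n = 2), where 5.37% of the positions lie. A further 9.14% and 9.504% lay in the 1 kb flanks, and 12.97% and 12.04% beyond 1 kb. The share inside varied little between chromosomes, with a mean of 76.7% on chromosome 6 and 79.4% on chromosome 9. Along the chromosomes it was lowest between 35 and 40% of the length, at 68.3% and 71.0%, and reached 81.2% and 81.2% between 75 and 80%. Taken as regions, 30906 of the 37060 ZmDDM1A regions, or 83.4%, overlapped a ZmAGO4 region, and 27632 ZmAGO4 regions, or 30.8%, overlapped a ZmDDM1A region.

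The density of ZmDDM1A summits dropped sharply at the region edge and then did not fall evenly. It was 316 and 312 summits per Mb inside ZmAGO4 regions. In the first 250 bp outside it was 24.1 and 24.6 per Mb. From 250 to 500 bp it was higher, 33.2 and 34.3 per Mb in both libraries, and from 500 to 1000 bp it was 30.4 and 30.7 per Mb. Beyond that it fell to 15.1 and 15.2 per Mb at 1 to 2 kb, 6.89 and 6.62 per Mb at 2 to 5 kb, 2.11 and 1.87 per Mb at 5 to 20 kb, and 1.40 and 0.998 per Mb farther out. The density in the 1 kb flanks exceeded that of all positions beyond by 3.27 ± 0.115 on the log2 scale (SD, n = 2). ZmAGO4 summits that fell outside regions, being called in 1 library only, were also scarce in the first 250 bp (2.07 and 1.77 per Mb) compared with 250 to 500 bp (33.7 and 26.05 per Mb). A ZmAGO4 peak that overlaps a region is part of it by construction, which is not so for ZmDDM1A.

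The zmddm1a embryos gave few summits in any zone. Their whole lists were short, with 817 and 883 peaks against 45957 and 45011 in WT, so a lower density inside the regions largely restates list length. Depth was not recovered for the zmddm1a libraries, and its part in their short lists was not tested. Inside ZmAGO4 regions the ZmDDM1A antibody gave 5.96 and 4.66 summits per Mb in zmddm1a, against 316 and 312 per Mb in WT, and WT was 59.2 times zmddm1a in the mean (exact permutation p = 0.33). From 250 to 500 bp outside, zmddm1a had a mean of 0.204 per Mb and WT 33.8 per Mb. The few mutant peaks that remained were not spread evenly. Of the zmddm1a summits, 82.5% in replicate 1 and 59.7% in replicate 2 lay inside ZmAGO4 regions, against 77.9% and 78.5% of the WT summits. The WT minus zmddm1a difference of 7.08 percentage points had an exact permutation p of 1. It was 0.631 with a fold of at least 4 in every list, -4.32 without zmddm1a replicate 2 and 18.5 without zmddm1a replicate 1. Replicate 2 of zmddm1a had 30.4% of its summits beyond 5 kb, against 7.59% in replicate 1.

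ZmDDM1B, the other maize DDM1, had a smaller share of its summits inside the ZmAGO4 regions. Of ZmDDM1A summits 78.2% ± 0.402 lay inside, against 69.2% ± 0.618 of ZmDDM1B summits (SD, n = 2 each, exact permutation p = 0.33). In the 1 kb flanks the order was reversed, with 9.32% ± 0.255 of ZmDDM1A summits and 13.1% ± 0.349 of ZmDDM1B summits (exact permutation p = 0.33). ZmDDM1A had 24.3 ± 0.350 summits per Mb in the first 250 bp outside, against 51.2 ± 2.62 for ZmDDM1B (SD, n = 2 each). Inside the regions ZmDDM1B was denser too, with 336 ± 11.2 per Mb against 314 ± 3.01 for ZmDDM1A. The ZmDDM1B lists were longer, and densities move with list length. Shares can move with the peaks a list keeps. Of ZmDDM1A summits, 60.8% and 67.7% lay inside in the weakest 10% of the list by fold, against 89.2% and 89.996% in the strongest. The part of list length in the ZmDDM1A and ZmDDM1B shares was not tested. Depth was not recovered for ZmDDM1B.

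**Figure D3:**
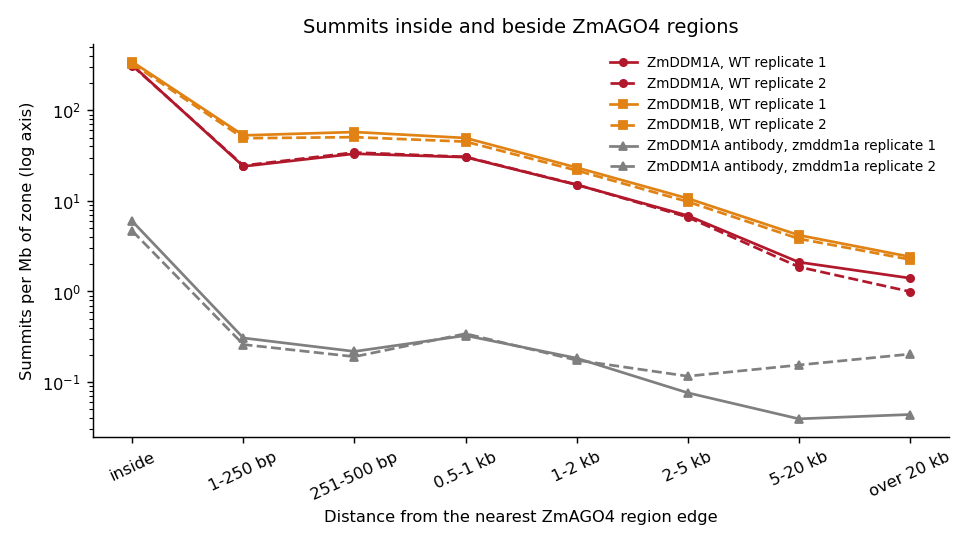
Summits per Mb (log axis) inside ZmAGO4 regions and in zones of growing distance from their edge, for ZmDDM1A in WT (red), ZmDDM1B in WT (orange) and the ZmDDM1A antibody in zmddm1a (grey), with solid lines for replicate 1 and dashed lines for replicate 2. Density inside is 316 and 312 per Mb for ZmDDM1A, against 24.1 and 24.6 in the first 250 bp outside, and zmddm1a stays under 6 per Mb in all zones.

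Whole peaks were also placed against the regions. ZmDDM1A peaks lay wholly within a ZmAGO4 region in 57.2% and 54.7% of cases, crossed an edge in 20.9% and 24.0%, covered a whole region in 1.601% and 1.85%, and touched none in 20.3% and 19.4%. Peaks that crossed an edge were wider, with medians of 498 and 521 bp, than peaks wholly within, with 374 and 387 bp. ZmDDM1B peaks lay wholly within a region in 45.0% and 44.7% of cases.

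Inside the ZmAGO4 regions, ZmDDM1A summits were spread over the length of the region while ZmAGO4 summits sat near its middle. The centre is here the central 33.3% of a region's length, and the outermost part the 33.3% made up by its ends. The centre held 36.0% and 35.3% of the ZmDDM1A summits inside regions, against 63.0% and 62.4% of the ZmAGO4 summits, a difference of -27.0 percentage points (exact permutation p = 0.33). It was -11.9 in regions of at least 1500 bp, an alternative added after seeing the data. With peak midpoints in place of summits it was -56.3. That value is largely fixed in advance, since 94.4% of ZmAGO4 regions join 1 peak of each library. The midpoints of such peaks lie near the region's middle by construction. The outermost part held 27.3% and 27.8% of ZmDDM1A summits, against 4.75% and 5.08% of ZmAGO4 summits. An even spread would give 33.3% in each. ZmAGO4 summits help to set the borders of their own regions, so their central position is partly fixed by how regions are made, whereas the position of ZmDDM1A is not.

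The even average hid a strong dependence on the width of the ZmAGO4 region. Regions were divided at 600, 1000, 1500 and 2500 bp, limits chosen after seeing the data, each width group holding its lower limit and not its upper one. In the 23795 regions under 600 bp, 71.7% and 71.1% of ZmDDM1A summits lay in the centre, against 86.0% and 85.0% of ZmAGO4 summits. In the 21594 regions of 600 to 1000 bp the centre held 40.5% and 39.3% of ZmDDM1A summits, against 62.2% and 61.3% of ZmAGO4 summits. In the 19943 regions of 1000 to 1500 bp the centre held 19.7% and 19.2% of ZmDDM1A summits, below the 33.3% of an even spread, against 61.1% and 61.2% of ZmAGO4 summits.

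Regions of 1000 to 1500 bp therefore had ZmDDM1A summits on their shoulders. Their outermost part held 30.1% and 29.8% of ZmDDM1A summits, against 3.51% and 3.81% of ZmAGO4 summits, and the stretch between centre and outermost part held 50.2% and 51.0% of ZmDDM1A summits. The median ZmDDM1A summit lay 272 and 271 bp from the nearer edge, while the median ZmAGO4 summit lay 444 and 443 bp from it. In wider regions the shoulders remained and the interior filled. The centre held 29.9% and 29.0% of ZmDDM1A summits in the 15664 regions of 1500 to 2500 bp, against 48.3% and 48.4% of ZmAGO4 summits. In the 8786 regions of 2500 bp and over it held 35.1% and 34.9% of ZmDDM1A summits, against 37.7% and 37.2% of ZmAGO4 summits. In each of the 5 width groups both ZmDDM1A libraries had a lower centre share than both ZmAGO4 libraries (exact permutation p = 0.33 in each).

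**Figure D4:**
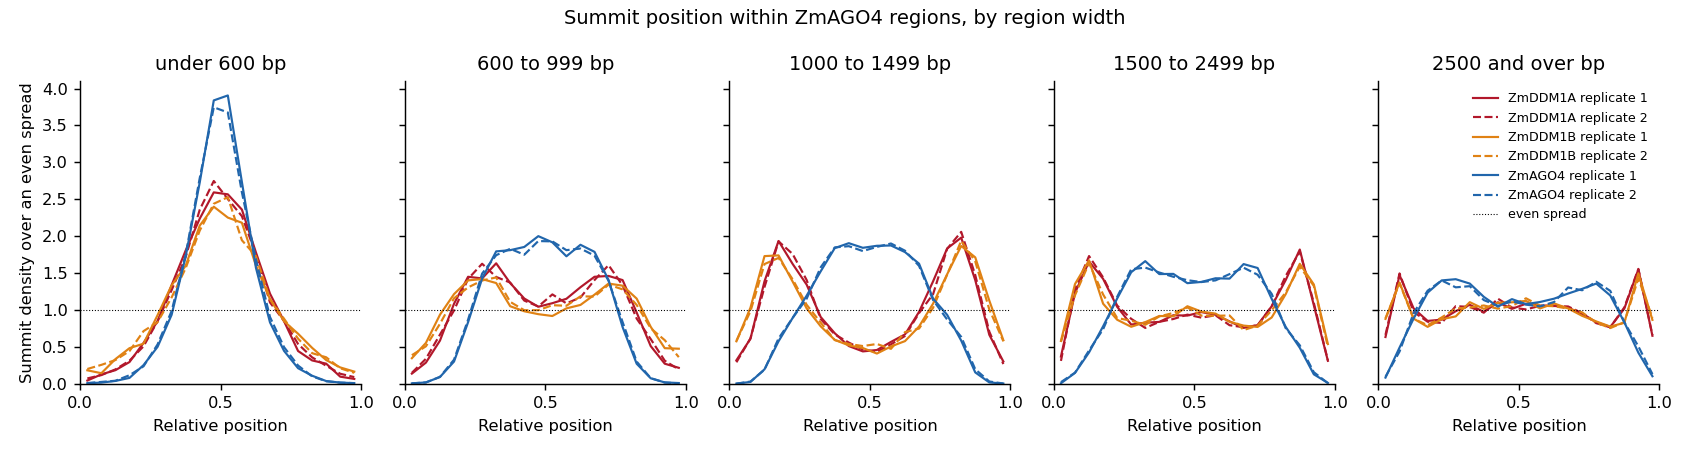
Density of summits along ZmAGO4 regions, scaled so that an even spread is 1, against relative position (0 and 1 are the region's edges) in 5 groups of region width, for ZmDDM1A (red), ZmDDM1B (orange) and ZmAGO4 (blue), with solid lines for replicate 1 and dashed lines for replicate 2. ZmDDM1A has a single central maximum under 600 bp and a maximum near each edge from 1000 bp upwards, where its centre share is 19.7% and 19.2% at 1000 to 1500 bp.

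ZmDDM1B followed ZmDDM1A in this layout with a shift towards the edges of narrow and middle-sized regions. Over all regions the centre held 36.0% and 35.3% of ZmDDM1A summits, against 34.1% and 34.4% of ZmDDM1B summits, a difference of 1.42 percentage points (exact permutation p = 0.33). It was 0.41 with a fold of at least 4 in every list, where the libraries overlapped (exact permutation p = 1), 0.48 with lists of equal length, and -1.07 in regions of at least 1500 bp, an alternative added after seeing the data. In regions of 1000 to 1500 bp the outermost part held 30.1% and 29.8% of ZmDDM1A summits, against 40.1% and 38.6% of ZmDDM1B summits. At 600 to 1000 bp it held 13.1% and 14.0% of ZmDDM1A summits, against 21.3% and 20.5% of ZmDDM1B summits. At 2500 bp and over the shares differed by under 1 percentage point, with 34.5% and 34.8% for ZmDDM1A and 34.3% and 34.1% for ZmDDM1B.

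Wider ZmAGO4 regions held ZmDDM1A summits more often, but not more of them per length. Regions with at least 1 ZmDDM1A summit were 19.1% and 18.5% of those under 600 bp, 24.4% and 24.0% at 600 to 1000 bp, 35.8% and 35.6% at 1000 to 1500 bp, 49.6% and 49.2% at 1500 to 2500 bp, and 69.4% and 69.3% at 2500 bp and over. Per kb of region there were 0.442 and 0.428 ZmDDM1A summits under 600 bp, and 0.303 and 0.301 at 2500 bp and over. For ZmAGO4 the number per kb was 2.31 in both libraries under 600 bp, and 0.311 and 0.320 at 2500 bp and over. Every ZmAGO4 region holds a ZmAGO4 peak of each library by definition, so the ZmAGO4 number per kb falls with width by construction and is no measure to compare ZmDDM1A with. Among regions that overlapped a ZmDDM1A region, the part under ZmDDM1A shrank with the width of the ZmAGO4 region. Its medians were 85.4% under 600 bp, 38.4% at 1000 to 1500 bp and 22.8% at 2500 bp and over. ZmDDM1A peaks were narrow, so this part falls with width largely by construction too.

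Many wide regions held several ZmDDM1A summits. At least 2 were found in 1.66% and 1.57% of regions of 1000 to 1500 bp, 6.69% and 6.44% at 1500 to 2500 bp, and 28.9% and 28.5% at 2500 bp and over. Among regions of 1000 to 1500 bp with exactly 2 ZmDDM1A summits and 1 ZmAGO4 summit per library, which numbered 287 and 281, the ZmAGO4 summit lay between the ZmDDM1A summits in 67.9% and 64.4%. The ZmDDM1A summits of those regions stood 700 and 682 bp apart in the median. Summits so far apart in regions of this width tend to enclose a central ZmAGO4 summit by geometry, and no expected share was computed. For ZmDDM1B the share was 75.9% and 72.1%, over 386 and 340 such regions.

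Distances between summits gave the same layout in base pairs. Where peaks overlapped, the median distance between a ZmDDM1A summit and the nearest ZmAGO4 summit was 261, 266, 264 and 270 bp in the 4 pairs of libraries (265 ± 3.77 bp, SD over pairs, which share libraries). Replicates of ZmDDM1A were 40 bp apart and replicates of ZmAGO4 29 bp apart. Over all widths the offset thus exceeded the scatter of summit calls several fold. Only 16.1% to 16.9% of the pairs lay within 50 bp, against 58.2% between replicates of ZmDDM1A. In regions with 1 ZmAGO4 summit per library the median offset was 42 and 42 bp under 600 bp, 106 and 116 bp at 600 to 1000 bp, 258 and 263 bp at 1000 to 1500 bp, and 711 and 694 bp at 2500 bp and over. Replicate ZmDDM1A summits were 27 bp apart in regions under 600 bp and 47 bp apart at 2500 bp and over. These replicate distances come only from regions with exactly 1 ZmDDM1A summit in each library, a smaller set than that of the offsets. A wider region leaves more room for an offset by geometry, and no expected offset was computed.

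Within the ZmDDM1A lists, peaks inside ZmAGO4 regions ranked higher in fold. The within-list percentile of fold runs up to 100 for the strongest peak. Its median was 53.6 and 53.0 for ZmDDM1A peaks inside and 37.4 and 39.1 for those outside, a difference of 15.1 ± 1.62 percentile points (SD, n = 2). Centre and edge were close, at 55.7 and 55.1 in the centre and 52.4 and 52.0 elsewhere inside. Peaks in the 1 kb flanks had medians of 35.1 and 34.5. Peaks inside were also wider, with medians of 410 and 432 bp, against 330 and 349 bp outside. The ZmDDM1A lists were also divided by fold into 10 steps of equal size. The share inside ZmAGO4 regions was 60.8% and 67.7% in the weakest step, 77.8% and 78.8% in step 5, and 89.2% and 89.996% in the strongest.

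This ordering depended on which peaks were kept. The difference was 1.10 percentile points with a fold of at least 4 in every list and -3.25 with lists of equal length, which keep the ZmAGO4 peaks of smallest p-value.

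Within the ZmAGO4 lists the picture was different. ZmAGO4 peaks with a ZmDDM1A region ranked 19.99 ± 0.218 percentile points above those without (SD, n = 2), but the relation was not a steady rise. The difference was 12.4 with lists of equal length, and -10.0 when the midpoint of the ZmAGO4 peak had to lie in the ZmDDM1A region. With the ZmAGO4 lists in 10 such steps, 31.4% and 32.4% of the weakest peaks overlapped a ZmDDM1A region. The share was 17.8% and 17.8% in step 4, and 48.7% and 49.7% in the strongest. Of all ZmAGO4 regions, a different unit since they join peaks of both replicates, 30.8% did. The median width went up over the same steps, with 380 and 378 bp in the weakest and 1756 and 1737 bp in the strongest. The median background moved with the share, at 20.4 and 18.0 fragments in the weakest step, 13.7 and 12.8 in step 4, and 17.1 and 15.8 in the strongest. Its part in the result was not tested.

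At fixed width the relation differed between widths. Among ZmAGO4 peaks under 600 bp the share with ZmDDM1A fell with rank. It was 23.5% and 24.1% in the lowest 20% of the list and 6.93% and 6.22% in the highest 20%. The median background of these peaks fell too, from 16.9 and 15.4 fragments in the lowest 20% to 8.17 and 7.26 in the highest 20%. Among peaks of 1000 to 1500 bp the share was 49.1% and 49.3% in the lowest 20%, 25.5% and 25.2% in the middle 20% and 39.5% and 39.9% in the highest 20%. Their median background was 23.4 and 22.2 fragments in the lowest 20%, 17.6 and 16.0 in the middle and 17.2 and 15.8 in the highest. Among peaks of 2500 bp and over the share was 45.1% and 47.3% in the middle 20% and 69.4% and 71.1% in the highest 20%. Their median background was 21.5 and 19.6 fragments in the middle 20% and 20.5 and 18.8 in the highest. The part of background in these shares was not tested. Over the ZmAGO4 peaks of middle width, the 33.3% around the median, the difference between peaks with and without ZmDDM1A was -2.39 percentile points.

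At common regions the strength of one protein said little about that of the other. A common region is a stretch where a ZmDDM1A and a ZmAGO4 region overlap, and there were 27390 of them. The Spearman correlation between ZmDDM1A and ZmAGO4 fold ranks was -0.0743, -0.0743, -0.0818 and -0.0779 in the 4 pairs of libraries, while it was 0.5945 between replicates of ZmDDM1A and 0.910 between replicates of ZmAGO4. By rank on −log10 q in place of fold it was 0.0183, and with lists of equal length 0.0279. Common regions under 600 bp stood apart, with a mean correlation of 0.2295 over 2951 regions, against -0.09545 over the 6210 regions of 1000 to 1500 bp. With the common regions ordered by ZmDDM1A rank, the median ZmAGO4 percentile was 71.4 in the lowest 20% and 60.8 in the highest 20%. Of the 2849 common regions at or above percentile 90 for ZmDDM1A, 341 (12.0%) were so for ZmAGO4 too, against 16.2% of all common regions. These 341 were 7.68% of the 4439 at or above percentile 90 for ZmAGO4, against 10.4% of all common regions at or above it for ZmDDM1A.

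**Figure D5:**
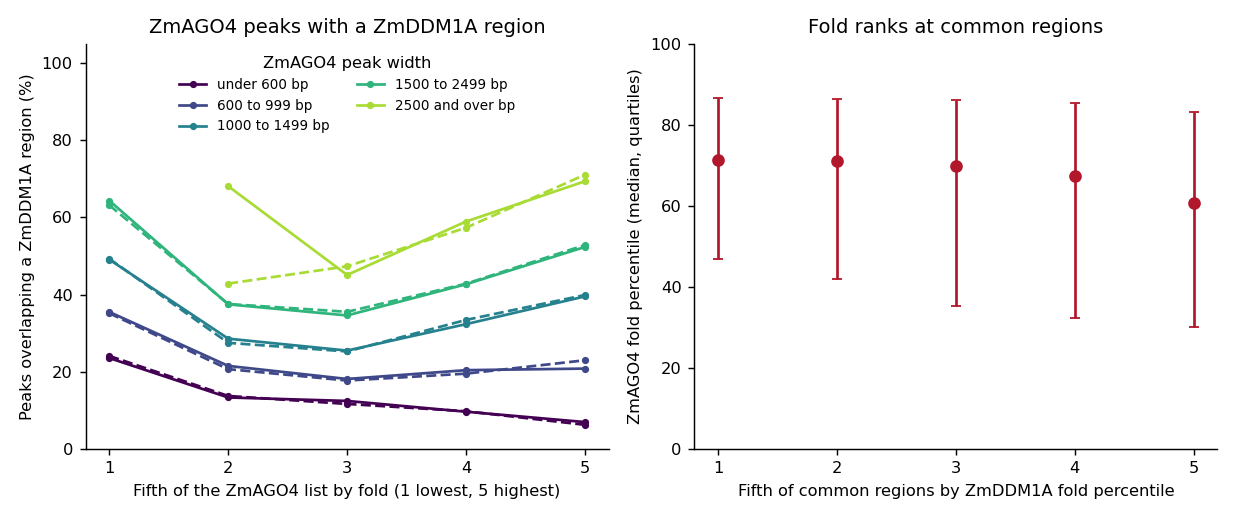
Left, share of ZmAGO4 peaks that overlap a ZmDDM1A region in 5 steps of the ZmAGO4 list (1 is the lowest fold) and by ZmAGO4 peak width, with solid lines for replicate 1 and dashed lines for replicate 2. The lone drop between replicates at 2500 bp and over rests on 69 and 63 peaks. Right, ZmAGO4 fold percentile (points, medians; bars, quartiles) in 5 steps of the common regions by ZmDDM1A percentile, with medians of 71.4 in the lowest and 60.8 in the highest.

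The regions named next were taken by rule and none held a zmddm1a peak. Of the common regions strongest for both proteins, the first was chr2:189672348-189673525, 1178 bp wide. Its ZmDDM1A folds were 10.3 and 12.9, its ZmAGO4 folds 23.2 and 20.8, and all 4 lay at or above percentile 99.06. Its ZmDDM1A summit lay 531 and 571 bp from its ZmAGO4 summit, so the strongest signals of both proteins did not coincide. The second, chr10:137495874-137498799, had ZmDDM1A folds of 9.02 and 9.01 and ZmAGO4 folds of 19.3 and 18.7, with summits 1648 and 1348 bp apart. In chr3:216210262-216213596 the summits lay 25 and 45 bp apart, with ZmDDM1A folds of 9.29 and 8.75 and ZmAGO4 folds of 19.99 and 18.1. In chr10:115918492-115919428 and chr9:137497987-137502115 the distance was 560 and 589 bp, and 654 and 575 bp.

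Strong ZmDDM1A with weak ZmAGO4 was found at 5 named regions of 487 to 1096 bp. The first, chr6:168943659-168944547, had ZmDDM1A folds of 8.39 and 12.0 (percentiles 97.3 and 99.5) and ZmAGO4 folds of 2.085 and 2.32 (percentiles 2.08 and 3.71). At chr1:293281794-293282280 the ZmDDM1A folds were 8.23 and 9.63, the ZmAGO4 folds 1.93 and 2.44, and the summits lay 46 and 12 bp apart. The other three were chr6:100892949-100893920, chr3:191195128-191196223 and chr6:66085202-66085857.

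Strong ZmAGO4 with weak ZmDDM1A was found at 5 named regions of 1209 to 5521 bp. In chr4:189976789-189982309 the ZmDDM1A folds were 2.49 and 2.50 (percentiles 5.67 and 6.44) and the ZmAGO4 folds 20.9 and 17.8 (percentiles 99.3 and 97.0), with summits 4448 and 4345 bp apart. In chr5:118621309-118622991 the ZmDDM1A folds were 2.58 and 2.08 and the ZmAGO4 folds 18.4 and 18.6. The others were chr2:227276264-227280066, chr6:162634083-162636624 and chr9:123561230-123562438.

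A small set of ZmAGO4 regions carried runs of ZmDDM1A summits. At least 5 in both libraries were found in 20 ZmAGO4 regions, or 0.0223% of all of them. The 5 named here were 5770 to 11831 bp wide. Wide regions have room for more summits, and no expected number was computed. In chr1:33990536-34002366, 11831 bp of 1 ZmAGO4 peak per library held 8 and 6 ZmDDM1A peaks, with highest ZmDDM1A folds of 6.55 and 6.78 and ZmAGO4 folds of 10.8 and 15.7. In chr1:51399759-51409376 there were 6 and 8 ZmDDM1A peaks, against 1 ZmAGO4 peak in each library. The others named were chr1:228554571-228560340, chr1:255035657-255044973 and chr7:171381316-171391262, with 6 or 7 ZmDDM1A peaks per library and 1 or 2 ZmAGO4 peaks. ZmDDM1B had 4 to 7 peaks per library in these 5 regions.

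Few ZmDDM1A regions lay far from every ZmAGO4 peak in the full lists. Of the 37060 ZmDDM1A regions, 2322 (6.27%) had no ZmAGO4 peak of either library within 1 kb. Without a zmddm1a peak as well there were 2144 (5.79%). The share depends on the rule and on the longer ZmAGO4 lists. By overlap of regions 83.4% of ZmDDM1A regions met ZmAGO4, and with lists of equal length 53.7% of ZmDDM1A summits lay inside ZmAGO4 regions. The share of all positions that far from a ZmAGO4 peak was not computed. The strongest was chr6:159037019-159037415, with ZmDDM1A folds of 31.7 in both libraries, and it held no ZmDDM1B peak either. At chr3:197334012-197334306 the ZmDDM1A folds were 12.4 and 10.9, at chr2:140516501-140516802 they were 10.7 and 12.0, and at chr2:38556779-38557082 they were 10.4 and 10.1, all without a ZmDDM1B peak. The last, chr1:296363458-296364424, had ZmDDM1A folds of 10.4 and 11.7 and ZmDDM1B folds of 4.38 and 3.49. At 4 of the 5 the region was 295 to 397 bp wide.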

How the data were processed

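ChIP-seq peak lists of 8 libraries were used, 2 per group, and the 2 zmddm1b lists, the input, IgG, H3K9me2 and mRNA libraries were not used here. Per the submitters' processing notes, the tools of the series included Trim Galore, Bowtie2, Picard and MACS2 2.1.2 and the build was B73 RefGen_v4, so W22 chromatin was placed on another line's assembly. The settings of each tool were not given in the sources used here. Each deposited list belongs to 1 library. The authors deposited for each peak its start, end and summit, a fold (ratio of signal to background at the summit) and −log10 p-values and q-values, whose smallest −log10 q lay between 2.00 and 2.12 over the lists.

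The depth is not stated in the lists. A whole-number pileup was recovered at each summit from the deposited fold, read as (pileup + 1) / (background + 1), and the Poisson p-value. It matched 99.998% to 100% of summits within 0.001, and the recurring lowest background was 3.41 and 3.57 fragments for ZmDDM1A and 7.72 and 6.93 for ZmAGO4. This is a relative depth.

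An overlap of 1 bp was enough for peaks or regions. The largest end in any list stood for the chromosome length. Groups were compared by a two-sided exact permutation test over libraries. Regions or peaks of 1 library are not replicates, so shares and ranks are given per library. The scripts were tested on simulated data. Python 3.11.15, numpy 2.4.6, scipy 1.17.1, pandas 2.3.3 and matplotlib 3.10.9 were used.

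Named regions were 5 each of these sets, leaving out regions with a zmddm1a peak: common regions with the highest smallest percentile over the 4 libraries, common regions where the ZmDDM1A percentile exceeded the ZmAGO4 percentile by most, the converse, ZmAGO4 regions with the most ZmDDM1A summits, and ZmDDM1A regions without a ZmAGO4 peak within 1 kb and with the highest smaller percentile. The comparisons, members and rules were chosen with earlier results of these data known. Alternatives were a stricter −log10 q (5 or more), a stricter fold (4 or more), equal list length, the union of replicates, peak midpoints, other definitions of centre, flank and rank, peaks of middle width, no peaks shared with zmddm1a, each library left out, and same-numbered libraries only.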

Additional observations from a re-analysis of the deposited data

How the results depend on the processing

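Over 12 results and 145 alternatives, the 6 results with a test kept their direction in 70 of 73 alternatives. No p can pass 0.05 with 2 libraries a group, so only direction was compared. The 3 reversals were the median gap with lists of equal length (log2 -0.80), the WT minus zmddm1a share inside ZmAGO4 regions without zmddm1a replicate 2 (-4.32 percentage points) and the ZmDDM1A minus ZmDDM1B centre share in regions of at least 1500 bp (-1.07 percentage points, chosen after seeing the data).

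Of the 6 results with no test, 5 alternatives reversed the sign. The Spearman correlation of fold ranks became 0.0279 with equal length and 0.0183 with ranks by −log10 q. The ZmAGO4 percentile difference became -10.0 when the midpoint of a ZmAGO4 peak had to lie in a ZmDDM1A region and -2.39 at middle width. The ZmDDM1A percentile difference became -3.25 with equal length. A further 40 kept the sign and moved beyond the spread between libraries. The share inside was 63.4% at fold 4, 53.7% with equal length and 82.6% with the union. The flank log2 ratio was 3.09 at −log10 q of 5, 2.47 at fold 4, 2.43 with equal length, 3.54 with the union and 2.84 with a 500 bp flank. The summit distance was 270 bp at −log10 q of 5, 347.5 bp at fold 4, 391 bp with equal length and 321 bp between midpoints. The Spearman correlation was -0.0834 at −log10 q of 5 and -0.0542 at middle width. The ZmAGO4 percentile difference was 19.1, 17.4, 12.4, 22.3 and 27.3 at −log10 q of 5, at fold 4, with equal length, with the union and ranked by −log10 q. The ZmDDM1A percentile difference was 11.2 at −log10 q of 5, 1.10 at fold 4, 19.8 with the union, 9.99 at middle width and 16.9 ranked by −log10 q. The cause of these shifts was not tested. The stricter −log10 q and fold shortened the lists of both antibodies, and equal length mainly those of ZmAGO4.

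Leaving out 1 library at a time gave -1.09 to -1.01 for width (log2), 0.92 to 0.99 for the gap (log2), 3.58 to 3.78 percentage points for the outer 40%, 77.6% to 79.6% inside, -4.32 to 18.5 for WT minus zmddm1a, -30.2 to -26.7 for the centre share against ZmAGO4, 1.06 to 1.79 against ZmDDM1B, 3.18 to 3.60 for the flank ratio (log2), 262.5 to 268 bp for summit distance, -0.0848 to -0.0658 for the Spearman correlation, 19.8 to 21.4 for the ZmAGO4 percentile difference and 13.9 to 17.9 for the ZmDDM1A one.

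Same-numbered libraries overlapped no more than others (81.8% of ZmDDM1A peaks in both, a difference of -0.0156 percentage points). Overlap of peaks cannot show whether same-numbered libraries shared chromatin or a batch, and the labels do not say. With the replicate block the share inside was 78.6%, the flank ratio 3.58, the ZmAGO4 percentile difference 21.3, the ZmDDM1A one 17.5 and the centre share against ZmAGO4 -29.9 percentage points, and no direction changed. The relative depth of ZmDDM1A was lower (background floor per kb of smallest peak width 17.9 and 17.9, against 31.4 and 28.5 for ZmAGO4). This limits which weak ZmDDM1A peaks could be called, so a place without a ZmDDM1A peak is not shown to lack the protein.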
